A study of Mus musculus with 23 samples.

Results

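The ventral prostates of C57BL/6J mice kept on a diet enriched in folic acid were compared 3 d after castration with those of intact mice on the same diet. Both groups had been given 24 mg folic acid per kg of diet from in utero onwards, and surgery, or collection of the gland in the intact mice, took place at 7 weeks of age. The castrated mice were therefore 3 d older at collection, and the labels name no sham surgery, so that loss of testicular androgens, surgery and age cannot be told apart. The comparison uses the 8 libraries whose labels give that diet and these states, 4 per group and 1 mouse each as the labels' wording is read here, out of 23 in the series. Of the 20308 genes in the table, 13412 had enough counts to be tested. All genes that were tested are members of the comparison. The labels name no litters. The tests treat each mouse as independent. For comparison only, there were 7 libraries from mice on a diet with 4 mg folic acid per kg, 4 intact and 3 at 3 d, and 4 libraries 10 d after castration on the enriched diet.

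The ventral prostate of the mouse is a secretory gland whose luminal epithelium depends on androgen. Androgen acts on secretory, metabolic and growth genes, and its withdrawal leads to loss of secretion, arrest of division and death of part of the epithelium. Folate carries one-carbon units for the synthesis of thymidylate and purines and for the remethylation of homocysteine to methionine, the source of S-adenosylmethionine for methylation and for the polyamines that the prostate secretes in large amounts.

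A single transcript set the scale of the data. Sbp, whose protein is secreted by this gland and binds spermine (GRCm38, chromosome 17, 23941672 to 23945607), held 56.0% ± 4.61 (SD, n = 4) of all counts in the 4 intact libraries and 33.0% ± 5.80 at 3 d, so that every 3 d library was below every intact one. Levels are given as CPM, counts divided by a library size that was scaled with TMM, a method that sets the bulk of the genes to no change, and a difference is a log2 change at 3 d against intact with its standard error. A gene is called changed at a Benjamini-Hochberg adjusted p under 0.05 in edgeR's quasi-likelihood test over all genes. By this measure 1923 genes, 14.3% of those tested, changed, of which 814 (6.07%) rose and 1109 (8.27%) fell. When libraries were scaled by their total counts alone, the median gene rose by 0.80, and 6378 genes were called higher and 214 lower. The scales differ by 0.79, so that a smaller fall below is a fall against the bulk of the genes and not in the share of all counts. Among the genes called, 299 rose and 471 fell by at least 2-fold, and 24 rose and 88 fell by at least 8-fold. In 1560 of the called genes (81.1%) the 4 libraries of each group did not overlap, which held for 17.6% of all tested genes. The libraries held 6381550 to 15616000 counts. Without intact replicate 2 the calls numbered 1272. Without the 2 libraries of lowest smooth muscle markers, intact replicate 3 and 3 d replicate 2, they numbered 1162.

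**Figure D1:**
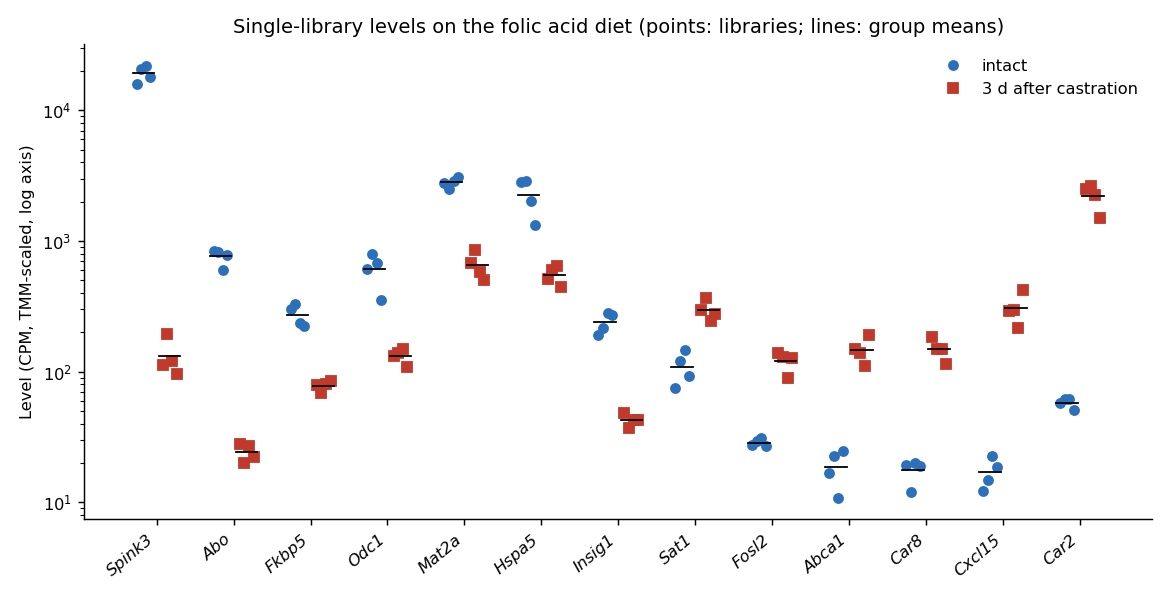
Level of 13 genes in each library, in CPM on a log axis, with 4 intact libraries as circles, 4 libraries at 3 d as squares and the group means as lines. In each of the 13 genes shown the groups did not overlap, from Spink3, which fell by 7.19 on the log2 scale, to Car2, which rose by 5.26. For the genes named by the size of their change, the naming rule required this.

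Secretory genes that depend on androgen were among the largest falls. The largest fall with a mean level above the naming limit was that of Spink3, a secreted inhibitor of serine proteases of the male accessory glands. Its level was 15879.5, 20890.3, 22012 and 17890.2 CPM in the intact libraries and 113, 195, 121 and 95.9 CPM at 3 d. The groups stood 146-fold apart (log2 change -7.19 ± 0.32 (SE), adjusted p = 8.49e-17). In the intact gland Spink3 came next to Sbp with 1.17% ± 0.158 (SD, n = 4) of all counts, and at 3 d it held 0.0136%. Abo, the glycosyltransferase of the ABO blood group, stood at 845, 817, 601 and 789 CPM in intact libraries and at 27.9, 20.1, 26.8 and 22.2 CPM at 3 d (log2 change -4.98 ± 0.25 (SE), adjusted p = 2.93e-15). Apof, the gene of apolipoprotein F, had 285, 235, 258 and 335 CPM before and 13.6, 25.1, 30.05 and 12.0 CPM after castration (log2 change -3.79 ± 0.41 (SE), adjusted p = 3.77e-06). Spink5, another protease inhibitor, fell by 2.26 ± 0.51 (adjusted p = 0.00578), and Sbp itself by 1.53 ± 0.30 (adjusted p = 0.000589). The unnamed gene 9530002B09Rik, the fourth by share of counts in the intact gland, went from 7192, 8268, 7519.6 and 6101 CPM to 1047, 1303, 1119 and 688 CPM (log2 change -2.81 ± 0.28 (SE), adjusted p = 3.62e-08).

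Of 21 tested genes listed as secretory products, 11 fell and 1 rose, with a median change of -1.53 against 0.01 over all tested genes. The gene that rose was Dpp4, a membrane peptidase (log2 change 0.68 ± 0.14 (SE), adjusted p = 0.0013). The count of falls was between 6 and 9 when single libraries were left out (6 without 3 d replicate 4, 7 without intact replicate 1 or without 3 d replicate 1 or 3), and 6 without the 2 libraries of low smooth muscle markers. On the scale of total counts 4 members were higher and 9 lower. Pbsn, probasin, a secretory gene that is used as a prostate promoter in transgenic mice, did not pass the test. Its libraries ranged from 26.9 to 512 CPM in intact mice and from 122 to 199 CPM at 3 d (log2 change -0.65 ± 1.11 (SE), adjusted p = 0.765), and its sign turned without intact replicate 4. Reads of close relatives such as Sbp and Sbpl, or Spin2c and Spin2d, are divided by estimate, so that their single values are less certain. In bulk tissue fewer cells of a type and less RNA per cell cannot be told apart.

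Some genes known to be induced by androgen fell. Fkbp5, a co-chaperone of steroid receptors, had 302, 329, 235 and 223 CPM in intact libraries and 79.1, 69.1, 80.0 and 85.4 CPM at 3 d (log2 change -1.80 ± 0.20 (SE), adjusted p = 1.51e-07). Its groups did not overlap. Bmpr1b, a receptor of bone morphogenetic proteins, fell by 1.69 ± 0.20 (adjusted p = 2.97e-07). Tsc22d3, the glucocorticoid-induced leucine zipper gene, fell by 1.37 ± 0.18 (adjusted p = 2.64e-06). In all, 5 of 29 tested androgen-induced genes fell and 2 rose, with a median change of -0.06; 1 rose without intact replicate 3 or without 3 d replicate 3 or 4, and 4 rose without intact replicate 4. On the scale of total counts 16 rose and 4 fell (median 0.75).

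Nr3c2, the mineralocorticoid receptor, rose by 0.96 (adjusted p = 0.00234), and Ncoa3, a coactivator of nuclear receptors, by 0.87 (adjusted p = 0.000799). Of 26 tested steroid receptors, cofactors and steroid enzymes, 5 rose and 1 fell, and 3 rose without intact replicate 2 or 3. On the scale of total counts 15 rose and none fell.

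Epithelial transcription factors changed in both directions, with 7 of 30 lower and 3 higher, against 3 lower and 13 higher with total counts alone. Hoxa13, a homeobox gene of the urogenital tract, rose from 13.9, 8.50, 7.98 and 18.2 CPM to 39.1, 41.8, 30.9 and 43.9 CPM (log2 change 1.69 ± 0.28 (SE), adjusted p = 7.66e-05). Gata3, chosen after its values were seen, rose by 0.80 (adjusted p = 0.00396). Hoxb13, a homeobox gene of the prostate, fell by 1.03 ± 0.21 (adjusted p = 0.000704), while with total counts alone its change was no longer called (adjusted p = 0.317). Creb3l4, a membrane-bound transcription factor of the endoplasmic reticulum that is abundant in prostate, fell from 47.6, 49.5, 40.9 and 27.2 CPM to 16.9, 9.06, 5.41 and 12.1 CPM (log2 change -1.92 ± 0.29 (SE), adjusted p = 1.65e-05).

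**Figure D2:**
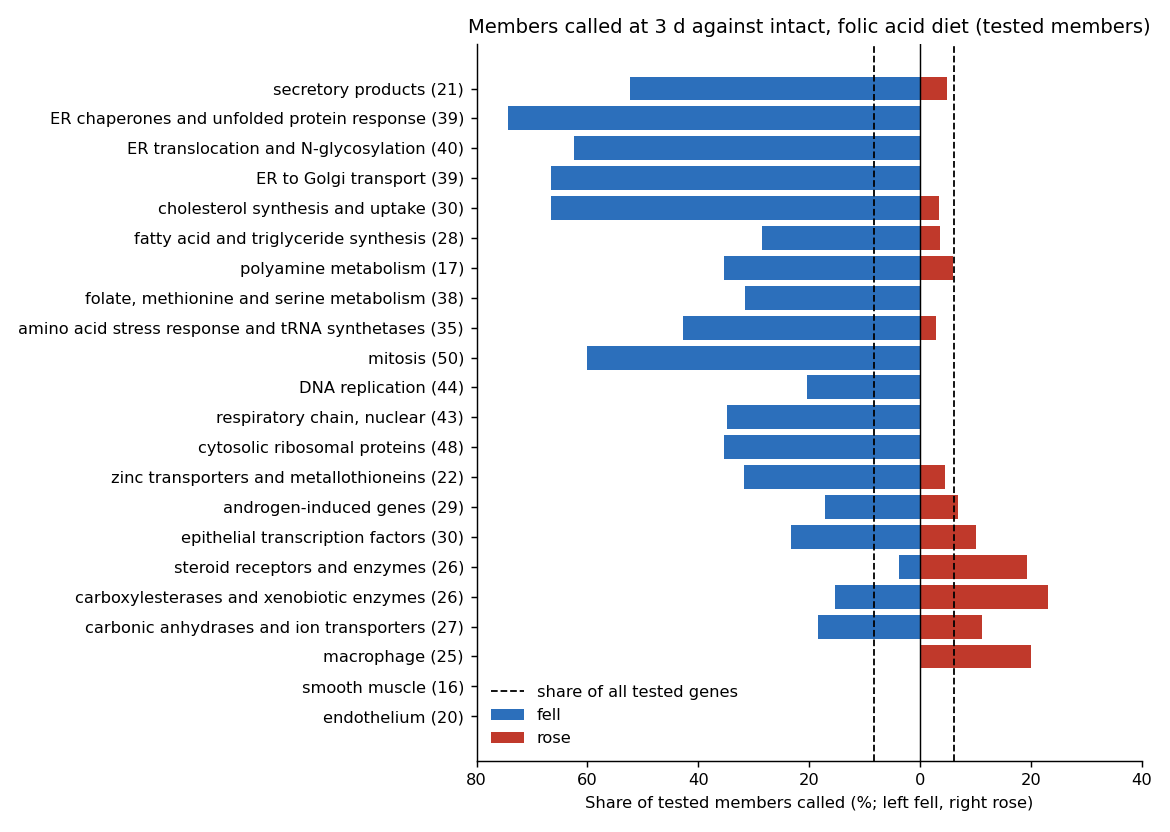
Share of the tested members of 22 gene lists called lower (bars to the left) or higher (bars to the right) at 3 d, with the number of tested members in brackets and the shares over all tested genes, 8.27% and 6.07%, as dashed lines. The 3 lists of the early secretory pathway, the cholesterol list and mitosis extend farthest to the left.

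Genes that fold and modify proteins in the endoplasmic reticulum (ER) fell together. Of 39 tested chaperones and members of the unfolded protein response, 29 fell and none rose, with a median change of -1.07. On the scale of total counts 15 fell and 6 rose. Hspa5, the chaperone BiP (GRCm38, chromosome 2, 34771970 to 34777547), went from 2827, 2903, 2015 and 1322 CPM in intact libraries to 509, 606, 643 and 444 CPM at 3 d (log2 change -2.04 ± 0.22 (SE), adjusted p = 4.32e-08). Calr, calreticulin, a lectin chaperone, went from 5381, 6553, 4491 and 4251 CPM to 1127, 1845, 1781 and 975 CPM (log2 change -1.85 ± 0.30 (SE), adjusted p = 8.44e-05). The groups of both genes were well apart.

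P4hb, a protein disulfide isomerase, had 3368, 4543, 4007 and 3083 CPM in intact mice and 1287, 1415, 1416 and 1181 CPM at 3 d (log2 change -1.50 ± 0.17 (SE), adjusted p = 1.03e-07). Sdf2l1, a BiP partner, fell by 2.25 ± 0.21 (adjusted p = 3.69e-09), and Fkbp11, a prolyl isomerase of secretory tissues, by 3.26 ± 0.44 (adjusted p = 3.85e-06). Derl3, a factor of ER-associated degradation, had 26.4, 38.6, 17.1 and 23.4 CPM and then 1.94, 3.95, 5.41 and 1.87 CPM (log2 change -3.02 ± 0.33 (SE), adjusted p = 8.15e-08). The sensors and regulators of the response, named here after their values were seen, did not pass the test. Xbp1 changed by -0.26 ± 0.16 (adjusted p = 0.299), Atf6 by 0.06 ± 0.15 (adjusted p = 0.835), Ern1 by 0.33 ± 0.16 (adjusted p = 0.194) and Ddit3 by 0.27 ± 0.30 (adjusted p = 0.628).

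The promoters of these genes were read for the ER stress response element, searched as CCAAT and CCACG with exactly 9 bases between them on both strands, from 250 bases before to 50 after each RefSeq start (GRCm38.p6). Promoters were in the table for 34 of the 39 genes, and 10 of them (29.4%) held the element, against 19 of 10736 tested genes with a promoter (0.177%). Of the 10 genes, 9 fell and Ero1lb did not pass the test. Of the 9 genes with the element outside the list, none fell or rose. Xlr3b, Xlr3a, Acacb, Zfp57 and Adcy3 among them had standard errors of 1.07 to 2.07, against 0.13 to 0.33 for the listed genes that fell. Changes of the size seen in the list could hardly be called in them. The match of Alg12, also outside the list, is the same stretch of DNA as that of Creld2. The matches of the 9 genes that fell are shown with 10 bases on each side, in the direction of the element and with its CCAAT and CCACG in capitals, because the element is the sequence these genes share. Hsp90b1 has a pair of them.
Derl3 (chr10:75893232-75893270, minus strand): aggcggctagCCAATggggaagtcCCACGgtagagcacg
Creld2 (chr15:88819510-88819548, minus strand): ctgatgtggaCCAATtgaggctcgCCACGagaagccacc
Hspa5 (chr2:34772015-34772053, plus strand): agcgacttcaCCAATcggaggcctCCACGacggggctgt
Calr (chr8:84847065-84847103, plus strand): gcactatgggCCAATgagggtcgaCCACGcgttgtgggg
Pdia6 (chr12:17266481-17266519, plus strand): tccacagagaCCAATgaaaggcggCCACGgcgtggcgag
Hsp90b1, first (chr10:86705628-86705666, minus strand): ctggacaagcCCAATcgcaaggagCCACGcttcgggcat
Hsp90b1, second (chr10:86705523-86705561, plus strand): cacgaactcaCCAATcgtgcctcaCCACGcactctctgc
Syvn1 (chr19:6046522-6046560, plus strand): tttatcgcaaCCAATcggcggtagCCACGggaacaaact
Dnajc3 (chr14:118937817-118937855, plus strand): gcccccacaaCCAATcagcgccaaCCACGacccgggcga
Canx (chr11:50325790-50325828, minus strand): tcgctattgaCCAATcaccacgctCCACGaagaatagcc
The bases between the capitals differ from gene to gene, and the centre of the match lies 35 to 203 bases before the start. The 250 bases before the start of Hspa5 (chr2:34771840-34772089, plus strand) are shown whole, with the element and every CCAAT, read on either strand (ATTGG), in capitals.
Hspa5: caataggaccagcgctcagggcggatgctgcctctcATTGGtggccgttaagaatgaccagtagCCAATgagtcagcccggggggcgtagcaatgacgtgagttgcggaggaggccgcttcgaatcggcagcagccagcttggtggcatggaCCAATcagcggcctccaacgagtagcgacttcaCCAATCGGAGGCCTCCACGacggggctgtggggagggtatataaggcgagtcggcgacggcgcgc
The CCAAT pentamer occurs 4 times in this stretch, 1 of them within the element. In order of their change the genes with the element were Derl3 (-3.02), Creld2 (-2.33), Hspa5 (-2.04), Calr (-1.85), Pdia6 (-1.47), Hsp90b1 (-1.44), Syvn1 (-1.10), Dnajc3 (-1.07) and Canx (-0.72), on the log2 scale; Pdia6, Hsp90b1, Syvn1, Dnajc3 and Canx were named after their values were seen. On the scale of total counts the change of Canx was reversed. Of the 25 genes with a promoter that fell, 16 held no exact match. The match is a description of the letters and not of a bound factor. The androgen response element, searched as AGAACA and TGTTCT with 3 bases between them on both strands, was found in none of 21 promoters of androgen-induced genes and in 1 of all 10736. With an exact match this rare, its absence from the 21 cannot set them apart from other genes. Inexact matches and sequence outside the promoters were not searched.

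**Figure D3:**
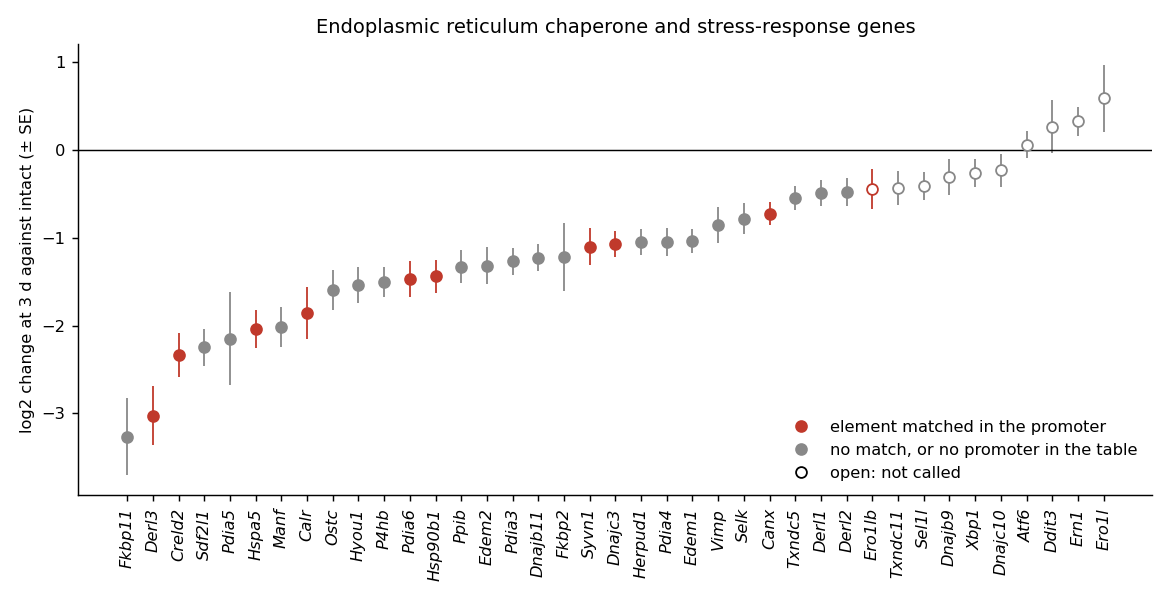
Log2 change at 3 d against intact with its standard error for the 39 tested ER chaperone and stress-response genes, in order of the change; filled symbols were called, and red symbols hold the ER stress response element in a promoter. All 9 called genes with the element are below zero, and Ero1lb is the only open red symbol.

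The steps before and after folding followed the same direction. Of 40 tested genes of ER translocation and N-glycosylation 25 fell and none rose (median -0.76), while with total counts alone 6 fell and 9 rose. Of 39 genes of ER to Golgi transport 26 fell and none rose (median -0.67), against 3 that fell and 8 that rose with total counts alone. Ssr4, a subunit of the translocon-associated complex, had 115, 142, 140.3 and 109.9 CPM in intact libraries and 30.8, 32.8, 18.6 and 23.6 CPM at 3 d (log2 change -2.26 ± 0.23 (SE), adjusted p = 4.32e-08). Rpn1, a subunit of the oligosaccharyltransferase, fell by 1.31 ± 0.14 (adjusted p = 7.04e-08), and Sec11c, a catalytic subunit of the signal peptidase, by 1.37 ± 0.20 (adjusted p = 1.18e-05). Both stayed lower with total counts alone.

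Among the transport genes, Surf4, a cargo receptor of the early secretory pathway, had 362, 370.2, 307 and 308 CPM and then 142, 145, 180.2 and 135 CPM (log2 change -1.16 ± 0.15 (SE), adjusted p = 1.33e-06). Tmed3, a p24 cargo receptor, fell by 1.36 ± 0.17 (adjusted p = 1.33e-06). Sar1a, the GTPase that starts the COPII coat, fell by 0.90 ± 0.15 (adjusted p = 6.58e-05), and Sec22b, a SNARE of this step, by 0.83 ± 0.14 (adjusted p = 8.54e-05). The falls of Sar1a and Sec22b were not called with total counts alone (adjusted p = 0.642 and 0.861).

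Some enzymes that make polyamines and their precursors fell, and Sat1, which acetylates polyamines, rose. Odc1, ornithine decarboxylase, which makes putrescine (GRCm38, chromosome 12, 17544794 to 17551505), had 614, 791, 675 and 352 CPM in intact libraries and 133, 138, 149 and 108 CPM at 3 d (log2 change -2.20 ± 0.20 (SE), adjusted p = 3.05e-09). Amd1, S-adenosylmethionine decarboxylase, had 1733, 1533, 1510.4 and 1478 CPM and then 798, 746, 809 and 815 CPM (log2 change -0.98 ± 0.15 (SE), adjusted p = 2.8e-05). Its reads may be shared with Amd2. Sat1, which acetylates spermidine and spermine for breakdown and export, rose from 75.2, 119.9, 147 and 93.1 CPM to 298, 367, 243 and 274 CPM (log2 change 1.44 ± 0.20 (SE), adjusted p = 6.93e-06). The groups did not overlap in any of the 3 genes.

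Srm, spermidine synthase, fell by 1.83 ± 0.28 (adjusted p = 4.64e-05). Adi1, an enzyme of the methionine salvage that recycles the by-product of polyamine synthesis, had 314, 289, 286 and 266 CPM and then 98.7, 102, 84.6 and 92.1 CPM (log2 change -1.61 ± 0.16 (SE), adjusted p = 7.41e-09). Of 17 tested genes of polyamine metabolism 6 fell, 1 rose and 10 were not called. Among the falls was Oaz1, the antizyme of ornithine decarboxylase, named after its values were seen. With total counts alone 3 fell and 6 rose, Odc1, Adi1 and Srm were still lower, and Amd1 was not called (adjusted p = 0.277).

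Genes of folate, methionine and serine metabolism are compared here between groups on the same diet, so that no diet effect is read. Of 38 tested, 12 fell and none rose, with a median change of -0.43, while with total counts alone 5 fell and 11 rose. Mat2a, which makes S-adenosylmethionine (GRCm38, chromosome 6, 72432799 to 72439558), had 2784, 2499, 2891 and 3116 CPM in intact libraries and 683, 853, 575 and 502 CPM at 3 d (log2 change -2.11 ± 0.18 (SE), adjusted p = 5.71e-10). Mthfd2, the mitochondrial enzyme that oxidises methylene-tetrahydrofolate, had 32.9, 26.0, 24.8 and 27.2 CPM and then 4.93, 4.82, 4.69 and 2.81 CPM (log2 change -2.68 ± 0.35 (SE), adjusted p = 1.53e-06). Every library at 3 d was below every intact one in both genes.

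Phgdh, the first enzyme of serine synthesis from glucose, had 203, 207, 220.4 and 180.4 CPM in intact mice and 67.8, 80.8, 69.5 and 68.3 CPM at 3 d (log2 change -1.50 ± 0.17 (SE), adjusted p = 2.12e-07). Gnmt, which disposes of excess S-adenosylmethionine by methylating glycine, fell by 1.90 ± 0.32 (adjusted p = 7.75e-05). Ahcy, which splits S-adenosylhomocysteine, fell by 1.05 ± 0.18 (adjusted p = 9.74e-05) and was not called with total counts alone (adjusted p = 0.289). Of 18 tested genes of DNA methylation and demethylation, 2 fell and 1 rose (16.7%, near the 14.3% of all tested genes). With total counts alone 1 fell and 9 rose. Dnmt1, the maintenance DNA methyltransferase, did not pass the test, with 24.9, 18.4, 16.3 and 23.4 CPM in intact libraries and 26.1, 25.1, 20.4 and 30.4 CPM at 3 d (log2 change 0.30 ± 0.24 (SE), adjusted p = 0.456), although it was called higher with total counts alone (log2 change 1.08, adjusted p = 0.00171). Uhrf1, which recruits Dnmt1 to replicated DNA, fell by 3.43 ± 0.84 (adjusted p = 0.00471). Tdg, a DNA glycosylase of demethylation, fell by 0.68 ± 0.16 (adjusted p = 0.00411), which reversed with total counts alone. Dnmt3a, a de novo methyltransferase, rose by 0.57 (adjusted p = 0.0389) but lost the call without any single one of 7 of the 8 libraries (adjusted p up to 0.157).

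Amino acid supply and tRNA charging genes fell as well, 15 of 35 tested against 1 that rose, while with total counts alone 3 fell and 11 rose. Pycr1, the last enzyme of proline synthesis, had 68.0, 106, 108 and 81.2 CPM in intact libraries and 17.3, 24.3, 21.5 and 22.7 CPM at 3 d (log2 change -2.08 ± 0.33 (SE), adjusted p = 9.42e-05). Ddit4, a stress-induced inhibitor of mTOR signalling, fell by 1.84 ± 0.27 (adjusted p = 1.78e-05), and Slc7a5, a transporter of large neutral amino acids, by 1.71 ± 0.27 (adjusted p = 3.2e-05). Atf4, the transcription factor of this response, fell by 1.05 ± 0.21 (adjusted p = 0.000813). Aldh18a1, which opens proline synthesis, fell by 1.17 ± 0.17 (adjusted p = 1.26e-05). With total counts alone Atf4 (adjusted p = 0.291) and Aldh18a1 (adjusted p = 0.0959) were not called. Gpt2, a mitochondrial alanine transaminase named after its values were seen, was the member that rose (log2 change 0.76 ± 0.16 (SE), adjusted p = 0.000917).

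Cholesterol synthesis fell along the pathway while a cholesterol exporter rose. Of 30 tested genes 20 fell and 1 rose, with a median change of -1.11; with total counts alone 12 fell and 6 rose. Insig1, which retains the sterol sensor in the ER and is itself a target of the sterol response, had 192, 216, 281 and 273 CPM in intact libraries and 48.3, 37.1, 42.4 and 43.0 CPM at 3 d (log2 change -2.49 ± 0.22 (SE), adjusted p = 2.67e-09). Idi1, an isomerase of isoprenoid synthesis, had 54.9, 59.3, 94.3 and 70.3 CPM and then 6.95, 8.77, 5.77 and 9.82 CPM (log2 change -3.15 ± 0.32 (SE), adjusted p = 9.49e-08). Cyp51, lanosterol demethylase, fell by 2.37 ± 0.24 (adjusted p = 5.6e-08), and Fdps, farnesyl diphosphate synthase, by 2.43 ± 0.28 (adjusted p = 3e-07). Abca1, which moves cholesterol out of cells, rose from 16.8, 22.5, 10.9 and 24.9 CPM to 149, 140.2, 112 and 191 CPM (log2 change 2.98 ± 0.22 (SE), adjusted p = 4.12e-11). The lowest library at 3 d was well above the highest intact one.

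Of 28 tested genes of fatty acid and triglyceride synthesis 8 fell and 1 rose (none without intact replicate 3 or without 3 d replicate 3 or 4), against 1 that fell and 6 that rose with total counts alone. Scd2, a stearoyl-CoA desaturase, had 2227, 2881, 3261 and 2367 CPM in intact libraries and 1005, 898, 779.7 and 1005 CPM at 3 d (log2 change -1.54 ± 0.20 (SE), adjusted p = 1.19e-06). Its relative Scd1 fell by 1.23 ± 0.16 (adjusted p = 1.28e-06). Fasn, fatty acid synthase, fell by 1.10 ± 0.21 (adjusted p = 0.000379). Elovl1, an elongase, fell by 1.45 ± 0.25 (adjusted p = 0.000125). Acly, which makes cytosolic acetyl-CoA from citrate, fell by 0.63 ± 0.14 (adjusted p = 0.00278), a direction that reversed with total counts alone. Scd1, Fasn and Elovl1 were not called on that scale (adjusted p = 0.054, 0.318 and 0.0763).

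Genes of cell division were the list with the lowest median change. Of 50 tested mitosis genes 30 fell and none rose, with a median change of -2.95, and 19 fell and none rose with total counts alone. Mki67, the proliferation marker Ki-67 (GRCm38, chromosome 7, 135689784 to 135716361), had 65.8, 15.5, 77.7 and 108 CPM in intact libraries and 4.05, 9.25, 4.81 and 6.08 CPM at 3 d (log2 change -3.45 ± 0.72 (SE), adjusted p = 0.00322). Intact replicate 2 was far below the other 3 intact libraries, yet above all 4 castrated ones. Birc5, survivin, which serves the chromosomal passenger complex, had 26.8, 4.48, 19.5 and 41.4 CPM and then 1.67, 2.31, 0 and 1.22 CPM (log2 change -4.10 ± 0.78 (SE), adjusted p = 0.000786).

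Prc1, which bundles microtubules of the central spindle, had 17.7, 2.41, 15.4 and 38.3 CPM in intact libraries and 1.06, 2.51, 0.24 and 1.96 CPM at 3 d (log2 change -3.64 ± 0.68 (SE), adjusted p = 0.000434). Here intact replicate 2 overlapped with the castrated group. Stmn1, stathmin, which destabilises microtubules, fell by 2.72 ± 0.47 (adjusted p = 0.000434), and Cdca3, a trigger of mitotic entry, by 3.43 ± 0.61 (adjusted p = 0.0002). Ncaph, a condensin subunit, differed from these in its even intact values, 41.4, 47.8, 41.9 and 36.6 CPM, against 13.4, 20.7, 19.7 and 9.82 CPM at 3 d (log2 change -1.40 ± 0.27 (SE), adjusted p = 0.000531). Without intact replicate 4, the library with the highest Mki67, 18 of the 50 genes fell.

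The promoters of mitosis genes were read for the TTTGAA core of the cell cycle homology region and for CCAAT, both on both strands. TTTGAA was found for 31 of 43 genes with a promoter (72.1%), against 14.6% of all tested genes, and CCAAT for 32 of 43 (74.4%), against 42.6%. Both occurred in 27 of 43 (62.8%), against 7.20% of all. Of the 27 genes that fell and had a promoter 21 held TTTGAA, and of the 16 that did not fall 10 did. The stretches shown are from Prc1 (chr7:80294376-80294475, plus strand) and Mki67 (chr7:135716430-135716579, minus strand), upstream of the start, because both genes carry the 2 motifs close together; TTTGAA and CCAAT, on either strand, are in capitals.
Prc1: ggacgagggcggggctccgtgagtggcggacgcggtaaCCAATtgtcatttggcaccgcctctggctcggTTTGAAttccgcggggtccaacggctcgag
Mki67: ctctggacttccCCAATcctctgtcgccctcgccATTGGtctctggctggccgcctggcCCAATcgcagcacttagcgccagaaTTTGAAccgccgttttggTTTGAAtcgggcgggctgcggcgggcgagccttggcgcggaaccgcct
In Prc1 a single CCAAT lies upstream of a single TTTGAA. In Mki67 the CCAAT motif occurs 3 times, 1 of them on the reverse strand, before 2 copies of TTTGAA. Among all 1572 tested genes with TTTGAA in a promoter 8.52% fell, close to the 8.41% of all genes with a promoter.

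Part of the DNA replication genes fell. Of 44 tested genes 9 fell and none rose, while with total counts alone 1 fell and 9 rose. The count of falls was 4 without intact replicate 3 and 5 without 3 d replicate 4. Fen1, the flap endonuclease of Okazaki fragments, had 28.6, 24.8, 28.2 and 22.6 CPM in intact libraries and 13.5, 10.5, 7.93 and 12.2 CPM at 3 d (log2 change -1.24 ± 0.25 (SE), adjusted p = 0.000702). Rrm2, a subunit of ribonucleotide reductase, fell by 1.88 ± 0.44 (adjusted p = 0.00371). Dut, which keeps uracil out of DNA by splitting dUTP, fell by 1.32 ± 0.37 (adjusted p = 0.0136). With total counts alone none of the 3 was called (adjusted p = 0.192, 0.0551 and 0.217). E2F sites were counted as TTTCGCGC and TTTGGCGC on both strands. The first was in 7 of 36 promoters of the list (19.4%) and 0.708% of all genes, the second in 8 of 36 (22.2%) and 1.05%. Of the 9 genes that fell 2 held the first and 2 the second. Of the 27 that did not fall 5 held the first and 6 the second. Among all tested genes with the first or second site 10.5% and 7.96% fell, against 8.41% of all genes with a promoter.

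Respiratory and ribosomal protein genes made small falls that depended on the scale. Of 43 tested nuclear genes of the respiratory chain 15 fell and none rose (median -0.53), while with total counts alone 1 fell and 13 rose. Of 48 cytosolic ribosomal proteins 17 fell and none rose (median -0.43), while with total counts alone none fell and 20 rose. Without intact replicate 2 these counts were 5 and 4. Without the 2 libraries of low smooth muscle markers they were 10 and 6, and without 3 d replicate 1 or 4 the ribosomal count was 11 or 9. Ndufa1, a subunit of complex I, was the exception in size, with 90.5, 108, 105 and 102 CPM in intact libraries and 25.3, 23.6, 24.6 and 12.8 CPM at 3 d (log2 change -2.23 ± 0.23 (SE), adjusted p = 2.81e-08). It was lower on both scales. Rpl13 fell by 0.96 ± 0.20 (adjusted p = 0.00122), and with total counts alone it was not called (adjusted p = 0.55). Ribosomal proteins have many processed pseudogenes, so that their reads are uncertain.

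Idh2, Sdhb and Mdh2 were the 3 genes of the citrate cycle, of 32 tested, that fell, by 0.63 ± 0.15, 0.74 ± 0.18 and 0.55 ± 0.16 (adjusted p = 0.00452, 0.00511 and 0.0187). They were 9.38% of the list, against 14.3% called among all tested genes. All 3 reversed with total counts alone, and Mdh2 lost the call without single libraries (adjusted p up to 0.0641). Zinc transport is a feature of the prostate, which accumulates zinc. Of 22 tested zinc transporters and metallothioneins 7 fell and 1 rose, while with total counts alone 1 fell and 6 rose; none rose without intact replicate 1, 2 or 3 or without 3 d replicate 2, 3 or 4. Slc39a6, a zinc importer, fell by 1.25 ± 0.15 (adjusted p = 7.01e-07), Slc39a10 by 1.09 ± 0.21 (adjusted p = 0.000411) and Slc39a7, which releases zinc from the ER, by 1.04 ± 0.24 (adjusted p = 0.003). With total counts alone Slc39a10 and Slc39a7 were not called (adjusted p = 0.29 and 0.246), and Slc39a1 (fall of 0.60 ± 0.15, adjusted p = 0.0072) reversed.

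Genes not named so far were among the largest falls. Of these, Crabp1 is also counted below in the list of ester, aldehyde and xenobiotic metabolism. C2cd4a, which encodes a nuclear C2-domain protein, had 19.4, 32.3, 20.2 and 19.3 CPM in intact libraries and 0.088, 0.289, 0.601 and 0 CPM at 3 d (log2 change -6.59 ± 0.64 (SE), adjusted p = 1.58e-08). Crabp1, a binding protein of retinoic acid, had 137, 196, 174 and 114 CPM and then 6.34, 6.46, 5.17 and 3.65 CPM (log2 change -4.84 ± 0.33 (SE), adjusted p = 2.78e-10). Pdlim2, a PDZ and LIM domain protein, had 137, 211, 163 and 88.3 CPM and then 4.84, 10.9, 10.5 and 6.26 CPM (log2 change -4.21 ± 0.43 (SE), adjusted p = 1.26e-06). In all 3 genes the highest library at 3 d was far below the lowest intact one. The rule that named the genes of largest change required groups without overlap. Falls of 3.27 to 5.31 were seen in S1pr3, a receptor of sphingosine-1-phosphate (-5.31 ± 0.78, adjusted p = 0.000107), Kel, the Kell blood group endopeptidase (-4.90 ± 1.07, adjusted p = 0.00363), Scgb2b7, a secretoglobin (-4.26 ± 0.72, adjusted p = 0.000128), Slc17a9, a vesicular nucleotide transporter (-3.95 ± 0.56, adjusted p = 1.31e-05), Timp4, an inhibitor of metalloproteinases (-3.54 ± 0.33, adjusted p = 7.27e-08), and Cbr2, a carbonyl reductase (-3.27 ± 0.24, adjusted p = 6.52e-11).

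Carbonic anhydrase 2 led the rises. Car2, which hydrates carbon dioxide (GRCm38, chromosome 3, 14886273 to 14900770), had 58.0, 62.1, 61.4 and 50.6 CPM in intact libraries and 2494, 2634, 2243 and 1505 CPM at 3 d, 38.2-fold more (log2 change 5.26 ± 0.32 (SE), adjusted p = 1.7e-12). Car8, a relative without catalytic activity, had 19.4, 12.1, 20.2 and 19.0 CPM and then 184, 150.2, 149 and 115 CPM (log2 change 3.09 ± 0.22 (SE), adjusted p = 2.88e-11). Slc4a7, a sodium bicarbonate cotransporter, rose by 1.02 (adjusted p = 0.000946). These 3 were the only risen genes among 27 tested carbonic anhydrases and ion transporters, and 5 fell, while with total counts alone 9 rose and 1 fell. Slc26a4, the anion exchanger pendrin, fell by 1.26 ± 0.20 (adjusted p = 4.47e-05), and the potassium channel gene Kcnk1 by 0.85 ± 0.16 (adjusted p = 0.000259). With total counts alone neither was called (adjusted p = 0.0646 and 0.75).

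A pair of chemokine genes on chromosome 5 rose. Cxcl15, lungkine, a chemokine of mucosal epithelia (GRCm38, chromosome 5, 90794534 to 90803067), had 12.3, 14.9, 22.6 and 18.6 CPM in intact libraries and 294, 297, 215 and 420.0 CPM at 3 d (log2 change 4.17 ± 0.41 (SE), adjusted p = 9.07e-07). Cxcl5, a neutrophil attractant (chromosome 5, 90759360 to 90761624), had 0.737, 0.919, 0.679 and 0.209 CPM and then 9.24, 5.11, 7.57 and 14.96 CPM (log2 change 3.74 ± 0.65 (SE), adjusted p = 0.000675). Both groups were apart, although Cxcl5 was near the detection limit in intact mice. Il13ra1, a receptor chain for interleukins 4 and 13, was the third to rise (log2 change 0.93 ± 0.22 (SE), adjusted p = 0.00363) among 38 tested chemokines, cytokines and receptors, of which 1 fell. Of this list 10.5% was called, against 14.3% of all tested genes. Without intact replicate 1 or 3 d replicate 3 the rises were 5, and with total counts alone 16 rose and 1 fell.

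Enzymes of ester, aldehyde and xenobiotic metabolism were split, with 6 of 26 higher and 4 lower, or 11 higher and 4 lower with total counts alone. Ces1d, a carboxylesterase and lipid hydrolase, had 9.46, 13.4, 12.2 and 7.53 CPM in intact libraries and 127, 137, 149 and 56.8 CPM at 3 d (log2 change 3.45 ± 0.33 (SE), adjusted p = 1.02e-07). Its neighbour Ces1e rose by 3.03 (adjusted p = 1.2e-06), and the pair may share reads. Ephx1, the microsomal epoxide hydrolase, had 59.1, 70.2, 66.7 and 73.7 CPM and then 189.8, 202, 158 and 209 CPM (log2 change 1.49 ± 0.17 (SE), adjusted p = 2.3e-07). Aldh1a1, which makes retinoic acid from retinaldehyde, fell from 664, 469, 386 and 582 CPM to 139.6, 162, 138 and 115 CPM (log2 change -1.92 ± 0.20 (SE), adjusted p = 2.88e-08). Its groups did not overlap.

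Further rises were those of Entpd8, an ectonucleotidase (3.60 ± 0.60, adjusted p = 0.000315), Gpr128, an adhesion receptor (3.40 ± 0.44, adjusted p = 1.22e-05), Acss3, a mitochondrial acyl-CoA synthetase (3.35 ± 0.68, adjusted p = 0.000792), and Slc16a11, a monocarboxylate transporter (2.70 ± 0.45, adjusted p = 0.000133). Dach2, a transcription cofactor, had 5.90, 5.63, 7.81 and 12.1 CPM and then 39.8, 46.7, 42.1 and 63.2 CPM (log2 change 2.63 ± 0.24 (SE), adjusted p = 1.62e-09). Chodl, chondrolectin, had 8.48, 5.40, 12.4 and 7.53 CPM and then 47.8, 38.9, 30.2 and 52.5 CPM (log2 change 2.33 ± 0.23 (SE), adjusted p = 1.53e-08). In both genes all libraries at 3 d were above all intact ones, as the rule that named the genes of largest change required. Asgr1, a subunit of the asialoglycoprotein receptor, rose by 2.39 (adjusted p = 3.67e-06). Its partner Asgr2 rose by 2.42 (adjusted p = 0.0386) but lost the call without any of 5 single libraries (adjusted p up to 0.108). Naip6, a sensor of bacterial proteins from a family of near-identical genes, rose by 2.37 (adjusted p = 3.07e-05). Avpr1a, a vasopressin receptor, rose by 2.57 (adjusted p = 0.00114). Bbs12, a chaperonin-like gene of the cilium, rose by 2.73 (adjusted p = 0.00203), Txndc16 by 2.59 (adjusted p = 2.87e-05) and the zinc finger gene Zfp97 by 2.67 (adjusted p = 0.000135).

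Signalling genes changed in both directions. Fosl2, a component of the AP-1 transcription factor, had 27.4, 29.6, 30.9 and 27.0 CPM in intact libraries and 138, 129, 88.8 and 128 CPM at 3 d (log2 change 2.07 ± 0.20 (SE), adjusted p = 5.74e-09). Per2, a clock gene, rose by 1.44 (adjusted p = 0.000227), and Sgk1, a kinase induced by glucocorticoid, fell by 1.28 ± 0.21 (adjusted p = 7.66e-05; not called with total counts alone, adjusted p = 0.0845). The times of day of collection are not given in the labels. Myc, a growth-related transcription factor, did not pass the test, with 34.9, 35.6, 32.1 and 27.4 CPM in intact libraries and 31.6, 41.1, 37.9 and 30.7 CPM at 3 d (log2 change 0.12 ± 0.21 (SE), adjusted p = 0.775), although it was called higher with total counts alone (log2 change 0.90, adjusted p = 0.00061). Of 33 tested glucocorticoid-responsive and immediate-early genes 4 rose and 6 fell, while with total counts alone 17 rose and 2 fell.

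Igfbp3, a binding protein of insulin-like growth factors, had 7.25, 14.1, 1.70 and 11.7 CPM in intact libraries and 37.8, 20.04, 23.6 and 50.2 CPM at 3 d (log2 change 1.91 ± 0.49 (SE), adjusted p = 0.0134). Igfbp2, another such protein, had 84.4, 76.3, 79.4 and 35.4 CPM and then 11.6, 4.82, 4.69 and 13.5 CPM (log2 change -2.99 ± 0.55 (SE), adjusted p = 0.00104). The 2 genes thus moved in opposite directions, without overlap in either. Met, the receptor of hepatocyte growth factor, rose by 1.09 (adjusted p = 0.0003), and Erbb3 by 0.75 (adjusted p = 0.00263). Vegfa, the endothelial growth factor, fell by 1.02 ± 0.23 (adjusted p = 0.00256; not called with total counts alone, adjusted p = 0.38). Over the growth factor list 3 of 36 rose (6 without intact replicate 4) and 4 fell, while with total counts alone 16 rose and 1 fell. The share of this list called was 19.4%, against 14.3% of all tested genes. In the TGF-beta, BMP and WNT list 4 of 43 rose and 3 fell (16.3%, near the 14.3% of all tested genes). Without intact replicate 1 or 2 or without 3 d replicate 1, 2 or 3 the falls were 1. With total counts alone 19 rose and 1 fell. Inhbb, the beta-B subunit of activins and inhibins, rose by 1.85 (adjusted p = 0.00166), Smad4, the common mediator of TGF-beta signals, by 0.74 (adjusted p = 0.00429) and Tgfbr3, betaglycan, by 0.66 (adjusted p = 0.00412).

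Of 45 tested members of the Bcl2 family, caspases and death receptors, 3 rose and 3 fell (13.3%, near the 14.3% of all tested genes), and with total counts alone 28 rose. The count of rises was 1 without intact replicate 3 and 5 without intact replicate 4. Trp53inp1, a p53 target that promotes death and autophagy, had 32.9, 26.3, 17.1 and 37.2 CPM in intact libraries and 68.2, 49.8, 44.6 and 76.1 CPM at 3 d (log2 change 1.07 ± 0.25 (SE), adjusted p = 0.00429). Perp, a p53 target that also serves cell junctions, fell by 0.98 ± 0.15 (adjusted p = 2.02e-05), and Cycs, cytochrome c, by 0.98 ± 0.18 (adjusted p = 0.000247), neither of which was called with total counts alone (adjusted p = 0.382 and 0.349). Bcl2l2, an anti-apoptotic relative of Bcl2, fell by 0.59 ± 0.14 (adjusted p = 0.0048), which reversed on that scale. Clu, clusterin, a chaperone known to rise in the regressing rat prostate, did not pass the test. It had 252, 362, 449 and 461 CPM in intact libraries and 235, 237, 268 and 252 CPM at 3 d (log2 change -0.62 ± 0.72 (SE), adjusted p = 0.643), with overlapping groups and a sign that reversed with total counts alone, and it was called lower when these 2 groups were fitted alone (log2 change -0.61, adjusted p = 0.0341).

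Of 45 tested lysosome and autophagy genes 4 rose and 8 fell, the latter 4 without the 2 libraries of low smooth muscle markers, while with total counts alone 22 rose and 1 fell. Ctsl, cathepsin L, rose from 216, 241, 194 and 185 CPM to 336, 429, 403 and 362 CPM (log2 change 0.87 ± 0.20 (SE), adjusted p = 0.00224). Npc2, which hands cholesterol out of the lysosome, fell by 1.02 ± 0.20 (adjusted p = 0.000464; not called with total counts alone, adjusted p = 0.181). Atp6v1c2, a proton pump subunit, fell from 52.1, 48.3, 44.0 and 45.6 CPM to 2.29, 7.61, 6.25 and 4.77 CPM (log2 change -3.19 ± 0.58 (SE), adjusted p = 0.000781). Of 39 tested genes of glutathione and oxidant defence 4 rose and 5 fell, and 2 rose without intact replicate 1 or 4 or without 3 d replicate 1. On total counts alone 15 rose and none fell. Prdx6, a peroxiredoxin, rose from 523, 508, 564 and 409.7 CPM to 949, 1066, 936 and 904 CPM (log2 change 0.94 ± 0.19 (SE), adjusted p = 0.000781), and Sepp1, selenoprotein P, by 0.87 (adjusted p = 0.000792). The glutathione transferases Gstk1 and Gsto1 fell by 1.36 ± 0.24 and 1.29 ± 0.24 (adjusted p = 0.00013 and 0.000406) and were not called with total counts alone (adjusted p = 0.0686 and 0.0661). Gpx1, a glutathione peroxidase, fell by 0.77 ± 0.16 (adjusted p = 0.00122), which reversed on that scale.

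A few genes of antigen presentation and interferon response fell, and a few macrophage genes rose. Of 21 tested MHC class I and peptide loading genes 4 fell and none rose (19.0%, against 14.3% of all tested genes). On the scale of total counts 1 fell and 11 rose. H2-Q10, a class I gene whose reads may be shared with its relatives, had 120.4, 121, 72.5 and 141 CPM in intact libraries and 2.90, 7.23, 4.21 and 6.36 CPM at 3 d (log2 change -4.45 ± 0.60 (SE), adjusted p = 5.07e-05). H2-T22 fell by 0.80 ± 0.15 (adjusted p = 0.000405), H2-K1 by 0.70 ± 0.15 (adjusted p = 0.00166) and B2m, the light chain, by 0.74 ± 0.18 (adjusted p = 0.00453). With total counts alone H2-T22 was not called (adjusted p = 0.978), and the changes of H2-K1 and B2m reversed. Of 24 tested interferon-response genes 5 fell and none rose (20.8%, against 14.3% of all tested genes). On the scale of total counts 3 fell and 7 rose. Rsad2, viperin, had 18.6, 29.2, 27.3 and 55.2 CPM in intact libraries and 5.81, 12.3, 5.53 and 9.35 CPM at 3 d (log2 change -1.97 ± 0.38 (SE), adjusted p = 0.000537). Bst2, tetherin, fell by 1.57 ± 0.26 (adjusted p = 8.44e-05), Isg20 by 2.85 ± 0.61 (adjusted p = 0.0019), Stat2 by 0.81 ± 0.19 (adjusted p = 0.00359) and Irf7 by 1.03 ± 0.25 (adjusted p = 0.0039). Stat2 and Irf7 were not called with total counts alone (adjusted p = 0.915 and 0.453).

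Of 25 tested macrophage markers 5 rose and none fell (20%, against 14.3% of all tested genes), with a median change of 0.82. On the scale of total counts 12 rose. Mpeg1, a perforin of macrophages, had 2.46, 5.06, 3.73 and 6.28 CPM in intact libraries and 18.5, 22.1, 15.4 and 21.5 CPM at 3 d (log2 change 2.16 ± 0.32 (SE), adjusted p = 1.4e-05). Ctss, cathepsin S, had 29.0, 48.3, 19.7 and 25.3 CPM and then 67.8, 88.6, 74.6 and 77.8 CPM (log2 change 1.33 ± 0.24 (SE), adjusted p = 0.000392). C1qa, Lyz2 and Laptm5 were the other 3 (adjusted p = 0.031, 0.0366 and 0.0417), and each lost the call without several single libraries, so that the count was 2 or 3 without any one library except 3 d replicate 3. The summed level of the 26 marker genes was 102 to 134 CPM in intact libraries and 187 to 242 CPM at 3 d. For the 8 MHC class II markers it was 62.2 to 106 and 132 to 164 CPM. The groups did not overlap in either sum, nor in those of lymphocyte (5.68 to 11.5 and 12.0 to 16.2 CPM) and urothelium markers (168 to 211 and 244 to 318 CPM). The sums of interferon-response (399 to 547 and 296 to 397 CPM) and red blood cell genes (8.99 to 14.7 and 2.64 to 7.92 CPM) were lower at 3 d without overlap. For interferon response the gap was narrow, 398.5 against 397.3 CPM. The sums of the remaining marker lists overlapped, and 17.6% of all tested genes had groups without overlap. H2-Eb1, a class II beta chain, was the only member of the 7 tested that rose (log2 change 1.69 ± 0.40 (SE), adjusted p = 0.00638), and Cd74, the invariant chain, missed the threshold (log2 change 0.83 ± 0.31 (SE), adjusted p = 0.0746). Cd74 was called higher with total counts alone (log2 change 1.64, adjusted p = 0.000675), by DESeq2 (log2 change 0.84, adjusted p = 0.0331) and with these 2 groups fitted alone (log2 change 0.84, adjusted p = 0.0217).

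**Figure D4:**
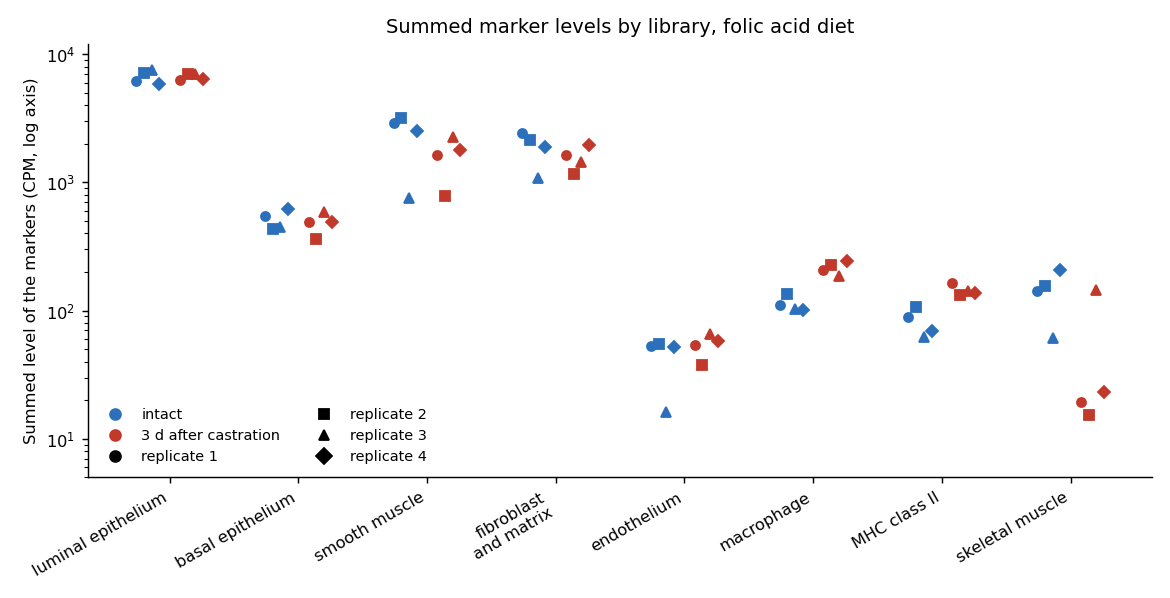
Summed level of cell type markers in each library, in CPM on a log axis, with intact libraries in blue, libraries at 3 d in red and 1 symbol per replicate number. Macrophage and MHC class II sums do not overlap between the groups, and the smooth muscle sum is lowest in intact replicate 3 and 3 d replicate 2.

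The labelled tissue was checked against markers of the cells it could hold. The sum of 16 luminal epithelial markers was 5836 to 7487 CPM in intact libraries and 6279.6 to 7060.1 CPM at 3 d. Of these 16 markers 5 fell and 1 rose (37.5%, against 14.3% of all tested genes), while with total counts alone 2 fell and 9 rose. Among them Agr2, a disulfide isomerase of secretory cells, fell by 2.28 ± 0.25 (adjusted p = 2.56e-07). Cldn3, a tight junction gene, fell by 0.75 ± 0.17 (adjusted p = 0.00222), which reversed with total counts alone. Of 13 tested markers of the proximal, castration-tolerant luminal cells Cyp2f2 and Rnf128 rose (1.03 ± 0.24 and 0.68 ± 0.20, adjusted p = 0.00414 and 0.0197) and Wfdc2 and Krt7 fell (-1.53 ± 0.38 and -1.73 ± 0.48, adjusted p = 0.00659 and 0.0191). Rnf128 and Krt7 lost the call without single libraries (adjusted p up to 0.0859 and 0.0575), and without both libraries of low smooth muscle markers neither Wfdc2 (adjusted p = 0.0864) nor these 2 passed. The basal list had 1 rise in 13, of Dst (0.56 ± 0.18, adjusted p = 0.0328), which was lost without 6 of the single libraries (adjusted p up to 0.124). Upk1b, a uroplakin, rose by 1.07 (adjusted p = 3.93e-05), while Upk3a and Upk3b were at 0 in all 8 libraries.

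None of 16 smooth muscle and 20 endothelial markers was called in the fit over all groups, and no cell count was made. The smooth muscle sum was 2925, 3197, 759 and 2501 CPM in the intact libraries and 1648, 782, 2261 and 1787 CPM at 3 d, so that 1 library of each group was far below the others. Acta2, smooth muscle actin, had 363, 379, 61.3 and 261 CPM and then 171, 59.8, 145 and 206 CPM (log2 change -0.87 ± 0.59 (SE), adjusted p = 0.38). Actg2 (log2 change -1.71 ± 0.70 (SE), adjusted p = 0.123) likewise overlapped, and was called lower with these 2 groups fitted alone (log2 change -1.69, adjusted p = 0.0199). Of 32 fibroblast and matrix genes Sparc fell (log2 change -1.61 ± 0.46 (SE), adjusted p = 0.0265), a call lost without intact replicate 1 or 2 or without 3 d replicate 2 or 3 (adjusted p up to 0.0907), and Dpp4 rose. Col1a1, a collagen chain, missed the threshold (log2 change -1.27 ± 0.43 (SE), adjusted p = 0.053). It was called lower by DESeq2 (log2 change -1.27, adjusted p = 0.0179), without robust estimation of the spread (log2 change -1.27, adjusted p = 0.0169), without intact replicate 3, 3 d replicate 1 or 3 d replicate 4 (adjusted p = 0.0196, 0.0463 and 0.0342) and without the 2 libraries of low smooth muscle markers (adjusted p = 0.0449). Of 16 skeletal muscle genes Acta1 and Myh2 fell (-2.70 ± 0.87 and -4.89 ± 1.201, adjusted p = 0.0456 and 0.00681), and Acta1 lost the call without any single library (adjusted p up to 0.11). The skeletal muscle sum was 142, 155, 60.8 and 209 CPM in intact libraries and 19.5, 15.2, 144 and 23.1 CPM at 3 d, with replicate 3 apart from the others. The part of these markers in the changes of other genes was not tested. Markers of neutrophils and mast cells were at 0 in all 8 libraries for 12 of 17 genes, among them S100a8, S100a9 and Mpo, and none of the 4 tested was called. Among the remaining lists, 1 of 24 complement genes rose (C1qa; none without intact replicate 2 or 4 or without 3 d replicate 1, 2 or 4; 10 with total counts alone), 1 of 34 ribosome biogenesis genes rose (2 without 3 d replicate 1 or 4) and 3 fell (18 rose and none fell with total counts alone), and 1 of 4 red blood cell genes fell (none without 3 d replicate 2, 3 or 4). The complement and ribosome biogenesis lists had 4.17% and 11.8% of their tested members called, against 14.3% of all tested genes. None of 11 lymphocyte, 8 nerve and 5 adipocyte markers was called, with Adipoq, Plin1 and Cidec at 0 in all 8 libraries. The seminal vesicle genes summed to at most 2.64 CPM.

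The same step of castration on the control diet, 4 intact and 3 castrated libraries, shares no library with the comparison above. It called 1339 genes (9.98% of those tested), 514 higher (3.83%) and 825 lower (6.15%). Of the genes called on the folic acid diet 911 (47.4%) were also called on the control diet, which were 68.0% of the latter's calls, and 910 had the same direction. Across all tested genes the log2 changes of both diets had a Pearson r of 0.464, a description over genes, which are not independent replicates. Among the folic acid calls 97.0% had the same sign on the control diet, against 71.8% of all tested genes.

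The 7 genes given here had the same direction on the control diet. Spink3 changed by -6.90 ± 0.36 (SE) on the control diet, Hspa5 by -2.69 ± 0.25, Odc1 by -2.28 ± 0.23, Mat2a by -2.32 ± 0.20, Insig1 by -1.94 ± 0.24, Abca1 by 2.48 ± 0.22 and Car2 by 5.99 ± 0.33. By list, the control diet called 8 of the 50 mitosis genes lower (median -1.81) and 31 of 39 ER chaperone genes (median -1.49). For cholesterol synthesis it called 15 of 30 lower (median -0.91), and for folate, methionine and serine metabolism 9 of 38 (median -0.45). With 1 library fewer the control comparison has larger errors, and these counts were not tested against each other. The order of the totals depended on the fit. With only the groups of each comparison fitted, 1852 genes were called on the control diet and 1624 on the folic acid diet.

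**Figure D5:**
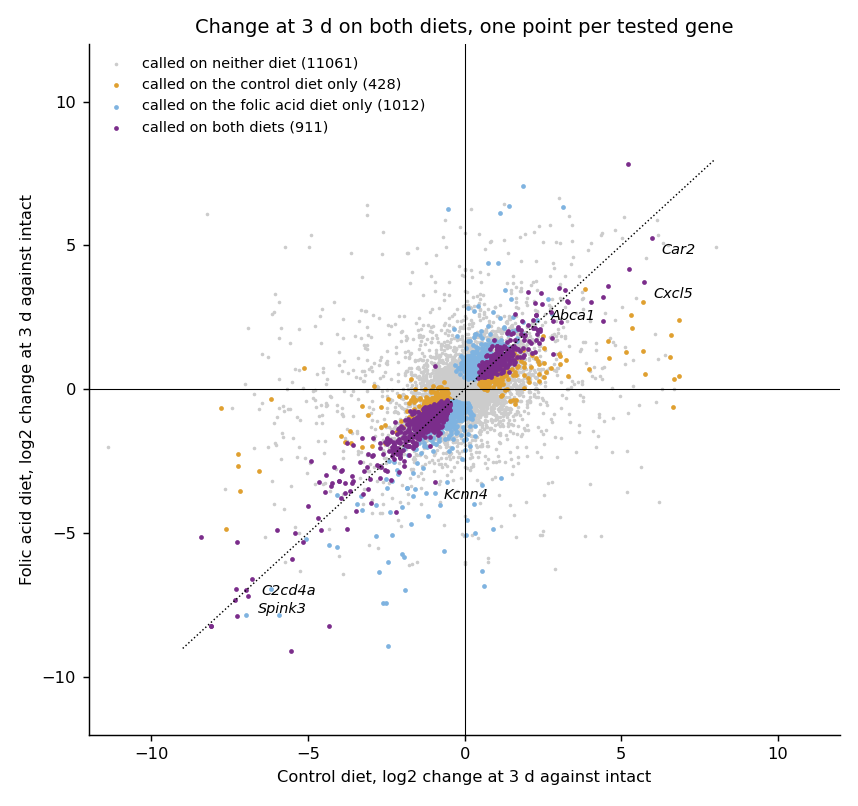
Log2 change at 3 d against intact on the folic acid diet (vertical axis) and on the control diet (horizontal axis), 1 point per tested gene, coloured by the diets on which it was called; the dotted line marks equal changes. Of the 911 genes called on both diets 910 have the same sign on both axes, and Kcnn4 lies below the line.

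The difference between both diets in the response at 3 d was tested gene by gene as an interaction. No gene passed (0 of 13412 by edgeR, with 650 at an unadjusted p under 0.05), and DESeq2 called 3. The smallest p was that of Kcnn4, a calcium-activated potassium channel (GRCm38, chromosome 7, 24370263 to 24386690). On the folic acid diet it had 32.7, 46.5, 59.7 and 34.3 CPM in intact libraries and 3.08, 3.57, 6.01 and 5.89 CPM at 3 d (log2 change -3.23 ± 0.30 (SE), adjusted p = 3.92e-09). On the control diet it had 22.7, 19.0, 18.5 and 24.0 CPM in intact libraries and 10.9, 12.9 and 9.02 CPM at 3 d (log2 change -0.94 ± 0.30, adjusted p = 0.0441). The difference between the changes was -2.28 ± 0.41 (SE), with an adjusted p of 0.0602, which passed with DESeq2 (adjusted p = 0.0023), with no filter on low counts (0.036), with the 4 groups alone (0.028) and without intact replicate 4 (0.041) or 3 d replicate 3 (0.049) of the folic acid diet.

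The other 4 genes of smallest p also missed the threshold. Pdzk1, a scaffold of membrane transporters, fell by 1.68 on the folic acid diet and by 3.27 on the control diet (difference 1.59 ± 0.33, adjusted p = 0.217; DESeq2 0.026; without control 3 d replicate 1, 0.0014). Fabp5, a fatty acid binding protein, changed by 0.54 and 2.37 (difference -1.83 ± 0.40, adjusted p = 0.455; DESeq2 0.0094). Eme2, a subunit of a DNA repair nuclease, was the 1 gene called on both diets in opposite directions, 0.80 and -0.95 (difference 1.75 ± 0.39, adjusted p = 0.408). Ppp1r1b, an inhibitor of protein phosphatase 1, changed by -0.20 and 1.199 (difference -1.40 ± 0.33, adjusted p = 0.531).

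On the folic acid diet the gland was also taken 10 d after castration, and that comparison uses the same 4 intact libraries, so that the values are given side by side. Spink3 had changed by -7.19 at 3 d and by -10.34 at 10 d, Sbp by -1.53 and -3.53, Hspa5 by -2.04 and -2.16, and Mat2a by -2.11 and -2.89. Insig1 had changed by -2.49 and -1.56, Idi1 by -3.15 and -1.44, Abca1 by 2.98 and 2.11, Igfbp3 by 1.91 and 3.90, and Cxcl5 by 3.74 and 7.84. Against intact, 1363 genes (10.2%) were higher and 1575 (11.7%) lower at 10 d, 2938 in all (21.9%). In the direct test of 10 d against 3 d, 22 genes were higher (0.164%) and 63 lower (0.47%), 85 in all (0.634% of those tested). Of the 1109 genes that had fallen at 3 d 35 were lower again at 10 d, and of the 814 that had risen 3 were higher again. The direct test shares the 3 d libraries by which these genes were selected, which biases it against a further change. Whether the changes went on after 3 d cannot be read from these counts.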

How the data were processed

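Poly(A) RNA of ventral prostates was sequenced, and the authors deposited expected counts per gene from RSEM 1.2.3 with Bowtie 0.12.9 after bcl2fastq 2.17.1.14, on mm10, per the submitters' processing notes. Strand setting and annotation: not given in the sources used here. Of the deposited expected counts 19.5% were not whole, and all were rounded. There was 1 column that matched no sample, and it was not used. RSEM divides reads shared by related genes by estimate.

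Genes were kept by edgeR's filterByExpr (minimum count 10, minimum total 15), which left 13412 of 20308. TMM factors and a robust quasi-likelihood fit over all 23 libraries in 6 groups were used (edgeR 4.0.16, limma 3.58.1, R 4.3.3), with two-sided tests and Benjamini-Hochberg adjustment over all tested genes. Every adjusted p in the text is from this test unless DESeq2 (1.42.0) is named. The biological coefficient of variation was 0.364. CPM refer to the TMM-scaled library. Tests were checked on simulated data. Alternatives were library totals, DESeq2 and its size factors, no filter, a replicate block, the groups alone, a non-robust fit and leaving out libraries.

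Named genes were the 20 with the largest change each way among called genes without overlap whose mean log2 CPM reached 1, up to 5 of smallest p per list, a few genes named in advance, the 5 of smallest interaction p and the 10 most abundant. The comparison, the members and the 48 gene lists were chosen with earlier results of these data known. Promoters are RefSeq's (GRCm38.p6; 10736 of 13412 tested genes matched) and gene positions GENCODE's for GRCm38. Some genes that the rule names are not reported here.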

Additional observations from a re-analysis of the deposited data

Results flagged for a closer look

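Most of the genes named above were searched for single libraries that stood apart. In each of the 350 groups of 4 libraries tested, the highest or lowest library was compared with its nearest neighbour. The gap was taken relative to the range of the group (Dixon's ratio against its 95% critical value). Chance gives such a library in about 1 in 20 groups, and 15 (4.29%) were found. Among the intact libraries, replicate 1 was low for Krt7 (28.9 CPM) and replicate 2 was low for Car8 (12.1 CPM) and high for C2cd4a (32.3 CPM) and Gstk1 (57.6 CPM). Intact replicate 3 was high for Wfdc2 (59.1 CPM), and intact replicate 4 was low for Igfbp2 (35.4 CPM) and high for Zfp97 (3.14 CPM). At 3 d, replicate 2 was high for Phgdh (80.8 CPM). At 3 d replicate 3 was low for Slc39a1 (40.4 CPM), Uhrf1 (0.481 CPM) and Cdca3 (0 CPM), and high for Krt7 (18.0 CPM). At 3 d replicate 4 was low for Mthfd2 (2.81 CPM), Ndufa1 (12.8 CPM) and Cycs (48.8 CPM).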

How the results depend on the processing

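Scaling by library totals alone changed most counts: the folic acid comparison then called 6592 genes (6378 higher, 214 lower) and the control diet comparison 5696 (5464 higher, 232 lower). It reversed Canx (0.0487), Acly (0.16), Idh2 (0.18), Sdhb (0.0481), Mdh2 (0.24), Slc39a1 (0.19), Gpx1 (0.0310), Bcl2l2 (0.19), H2-K1 (0.0892), B2m (0.00103), Cldn3 (0.0715), Clu (0.15) and Tdg (0.13), as log2 changes, and leaving out intact replicate 4 reversed Pbsn (0.10; range over single libraries left out -1.02 to 0.10). DESeq2 called 2268 genes in the folic acid comparison. Leaving out single libraries gave 1272 to 2143 calls (521 to 997 higher, 751 to 1146 lower, each least without intact replicate 2), and 906 to 1135 on the control diet (344 to 405 higher, 543 to 730 lower; the total and the lower count were least without control 3 d replicate 3, the higher count without control intact replicate 3). Leaving out intact replicate 3 and 3 d replicate 2, chosen after seeing the data, gave 1162 calls (450 higher, 712 lower). For the interaction, DESeq2 called 3 genes (1 higher, 2 lower), no filter and the groups alone 1 each (lower), and leaving out single libraries 0 to 2, namely 2 (1 each way) without intact replicate 4 of the folic acid diet, 1 (lower) without its 3 d replicate 3 and 1 (higher) without control 3 d replicate 1. The cause was not tested. The tally covered 167 called genes, most of those named here, without Oaz1, Pdzk1 and Eme2. Of the 167, 112 kept their call in all 17 settings and 55 lost it or reversed in at least 1.

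Replicate numbers were not taken to pair the mice. The deviations of same-numbered libraries from their group means had correlations of 0.004, 0.011, 0.042 and 0.179. Not every library correlated best with its own number. With 4 libraries per group, these correlations cannot exclude a pairing. With the replicate block over all groups 1972 genes were called, and 3 of 7 MHC class II genes were higher, among them Cd74 (adjusted p = 0.0215). Only the groups compared, without the block, gave 1624 calls. With the block and only the groups compared there were 1974 calls, 13 of the 35 mitosis genes tested in that fit fell, the calls of Mki67, Birc5, Lyz2, Laptm5 and Sparc were lost (adjusted p = 0.0568, 0.051, 0.0594, 0.073 and 0.124), Clu and Col1a1 were called lower and Cd74 higher (adjusted p = 0.0158, 0.00773 and 0.0121), and on the control diet 319 genes were higher. Depth limits the low genes: with 3 counts over a group as the floor, changes of genes near 0 CPM are not bounds.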
